A study of Mus musculus with 12 samples.

Results

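Prl2c2 and Prl2c3 are the mouse proliferin genes, placental members of the prolactin family that are described here in the mammary glands and mammary tumors of Brca1-deficient mice. They were 2 of the 21743 genes in the single-cell table, chosen from values of these same cells, in which they were high in 1 tumor. Their levels by library, by tumor and by cell class are therefore a description, with no test between groups. Groups and classes were tested only for other genes.

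Proliferins, also called mitogen-regulated proteins, are secreted glycoproteins made in large amounts by the trophoblast giant cells of the mouse placenta. They carry mannose 6-phosphate and bind the cation-independent mannose 6-phosphate receptor encoded by Igf2r, and they are known to promote the growth of blood vessels. Proliferin RNA was first found in mouse fibroblasts stimulated with serum, and a proliferin promoter became a textbook case of a composite DNA element read by AP-1 (Fos and Jun family dimers) together with the glucocorticoid receptor.

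Drop-seq, which reads the RNA of single cells in droplets and counts molecules by unique molecular identifiers (UMIs), was applied to 2 mice of mixed C57BL/6 and 129/Sv background. Every library carried MMTV-Cre and Brca1 flox/flox, so Cre was driven in mammary epithelium and no library came from a wild-type animal. MG1 and MG2 are the fourth mammary glands of mouse 1 and mouse 2, with 2 libraries each, and MT1 and MT2 are their tumors, with 5 and 3 libraries. Females of 3 to 4 months, virgin or pregnant, are the stated source of glands in general, and the age and state of these 2 tumor-bearing mice are not given separately in the sources used here. The suspensions were depleted of hematopoietic and endothelial cells, and the tissue was digested in a medium that held insulin, EGF and the glucocorticoid hydrocortisone. Libraries of a group repeat the preparation and not the animal, so a spread between libraries says nothing of the spread between mice, and a tumor cannot be told apart from its mouse or from an unrecorded library batch.

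The 12 libraries held 105 to 4874 cells and 693333 to 14841414 UMIs, with a median of 1784 to 4842 UMIs per cell. Libraries shared 0 to 7 cell barcodes, and 3 of the 908 cells with a proliferin UMI carried a shared barcode. Levels are given as CPM, the UMIs of a gene per 1000000 UMIs of the cells named. Brca1 itself was read at 0 to 17.2 CPM, at 0 in both MG1 libraries and at 7.42 or more in every tumor library. Only transcript 3′ ends are sampled by this method, so these levels are no check of the floxed deletion.

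Both members lie on mouse chromosome 13 (build GRCm38) on the minus strand, each with 5 exons, and neither overlaps another annotated gene. Prl2c3 (ENSMUSG00000056457) spans chr13:12790816-12800079 and Prl2c2 (ENSMUSG00000079092) spans chr13:12996125-13005383, with 196045 bases between them. Prl2c5, a further family member, lies on the plus strand at chr13:13182715-13191923. Their GENCODE transcripts are 842 nt (Prl2c2) and 857 nt (Prl2c3) long and each has a coding part of 672 nt. Over 842 aligned bases the transcripts of the members differed at 4 positions, an identity of 99.5%. Counted from 1 at the 5′ end of the Prl2c2 transcript, the substitutions from Prl2c2 to Prl2c3 are G8A in the 5′ UTR, T71C in coding exon 1, C257A in exon 2 and T376G in exon 4. The 3 coding differences are given in stretches of bases because they are the only coding positions at which a read can tell the genes apart, with the differing base in capitals.

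Prl2c2, position 71: ctcccttcttTgattcaacca
Prl2c3, position 71: ctcccttcttCgattcaacca
Prl2c2, position 257: gaactgttcaCtgaatttgaa
Prl2c3, position 257: gaactgttcaAtgaatttgaa
Prl2c2, position 376: cacacactatTcagctcttct
Prl2c3, position 376: cacacactatGcagctcttct

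The last of these lies 466 bases from the 3′ end, and the final 300 bases of the transcripts held 0 substitutions. All 151 of the 151 windows of 150 bases (the stated read length) that lie within those 300 bases of Prl2c2 were present in Prl2c3 as well. Over the whole Prl2c2 transcript 353 of 693 such windows (50.9%) were shared. Prl2c5 was further away, with 28 differences from Prl2c2 and 30 from Prl2c3, and it shared 0 windows of 150 bases with either. How the submitters' counting treated a read that matches both genes is not given in the sources used here. The division of UMIs between Prl2c2 and Prl2c3 is therefore uncertain wherever it is printed, and the sum of both genes is given beside it.

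The 250 bases upstream of the start were available for Prl2c3 and for Prl2c5 (RefSeq, GRCm38.p6), so 1 of the 2 members matched. They are shown because the proliferin promoter is known for its AP-1 element, and the capitals mark a match to TGANTCA, searched on both strands.

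Prl2c3, chr13:12800080-12800329, minus strand: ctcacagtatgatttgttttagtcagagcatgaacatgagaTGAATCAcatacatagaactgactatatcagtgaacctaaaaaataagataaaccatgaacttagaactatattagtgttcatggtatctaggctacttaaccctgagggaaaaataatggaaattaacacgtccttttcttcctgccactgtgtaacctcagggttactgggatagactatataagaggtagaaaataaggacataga

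The match begins 209 bases before the Prl2c3 start. Of 32851 annotated promoters of the same length, 2217 (6.75%) held TGANTCA. The Prl2c5 window (chr13:13182466-13182715, plus strand) was 96.8% identical, with 8 differences over 249 aligned bases, and 1 of them fell in the motif as T5C, counted from 1 at the 5′ end of the motif. The stretch around it, with the 7 bases of the motif in capitals, is shown for both genes.

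Prl2c3 motif: gaacatgagaTGAATCAcatacataga
Prl2c5 motif: gaacatgagaTGAACCAcgtacataga

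The palindromic glucocorticoid receptor motif, searched on both strands, was in neither window and in 3 of the 32851 promoters (0.00913%). A match is a feature of the letters and no evidence of binding, and its absence says only that these letters are not in this window.

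The proliferins were read mainly in MT1. Prl2c2 stood at 172, 29.2, 81.8, 122 and 92.7 CPM in the 5 MT1 libraries, a mean of 99.5 ± 52.6 (SD, n = 5). In the 3 MT2 libraries it stood at 4.85, 5.86 and 5.43, a mean of 5.38 ± 0.508 (SD, n = 3). The 2 MG2 libraries gave 0.452 and 5.91. Both MG1 libraries were at 0, where 3 counts would have given 0.969 and 4.33 CPM. The MT1 libraries thus lay above all the others, and MT2 and MG2 overlapped through 1 MG2 library. In that library 13 of the 25 Prl2c2 UMIs were in 1 cell, and without it (an alternative chosen after seeing the data) the level was 2.85 CPM, below all 3 MT2 libraries.

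Prl2c3 stood at 233, 27.3, 118, 180 and 108 CPM in the MT1 libraries, a mean of 133 ± 77.8 (SD, n = 5). MT2 was lower for this gene than for its paralog, with 0.674, 0.919 and 2.05 CPM and a mean of 1.22 ± 0.737 (SD, n = 3). MG2 was at 2.71 and 13.7 and therefore above MT2 in both libraries. In the higher of these, 35 of the 58 Prl2c3 UMIs were in the 1 cell mentioned for Prl2c2. Without that cell (an alternative chosen after seeing the data) its level was 5.47 CPM, still above MT2. MG1 was again at 0. For both genes the lowest MT1 library was replicate 2, which was also the deepest of the 5 per cell at a median of 2892.5 UMIs. All 5 MT1 libraries lay above the other 7 for both members, as they did for 9.67% of all 21743 genes, and this pattern is what chose the members.

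**Figure D1:**
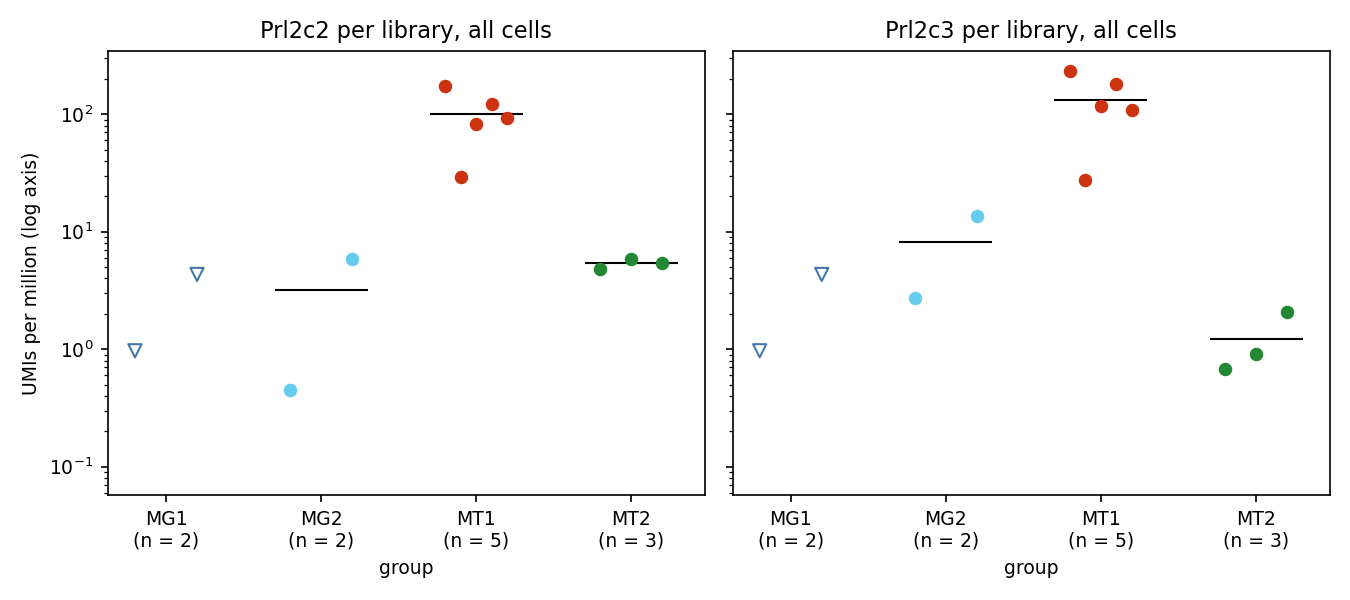
CPM (log axis) of Prl2c2 and Prl2c3 in each of the 12 libraries, all cells together, by group; dots are libraries, lines are group means, and open triangles mark the level that 3 counts would give in the MG1 libraries, which were at 0. The 5 MT1 libraries lie between 27.3 and 233, and every other library lies below 14.

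The share of cells with at least 1 UMI of either gene was 766 of 7690 cells in MT1 (9.96%), 121 of 10314 in MT2 (1.17%) and 21 of 2335 in MG2 (0.899%). In MG1 it was 0 of 818 cells, which allows a share of up to 0.450% (upper exact Clopper-Pearson bound). Within MT1 the libraries gave 12.3, 6.68, 8.90, 10.5 and 11.2%. Thinned to 1000 UMIs in every cell, a depth that all cells reached, the shares were 6.89% in MT1, 0.446% in MT2, 0.214% in MG2 and 0 in MG1. In total Prl2c2 gave 2153 UMIs in 668 cells and Prl2c3 gave 2726 UMIs in 618 cells.

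MG2 rested largely on a single cell. That cell, in replicate 2, held 13 Prl2c2 and 35 Prl2c3 UMIs among 23248 UMIs, 49.5% of all the proliferin UMIs of MG2. It also carried 41 Cav1 and 286 Vim UMIs and 0 Epcam UMIs. Without it the summed level of MG2 went from 11.2 to 5.68 CPM. MT1 did not rest on its richest cell, a replicate 4 cell with 47 Prl2c2 and 174 Prl2c3 UMIs. Without it (an alternative chosen after seeing the data) the MT1 means were 97.8 for Prl2c2 and 127 for Prl2c3.

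Within MT1 the proliferins were in the cells with caveolin-1 RNA. Cav1, which encodes the main structural protein of caveolae, and Epcam, an adhesion protein of epithelial cells, split the tumor into classes. Cav1-high cells have 2 or more Cav1 UMIs and 0 Epcam UMIs, and Epcam-positive cells have 1 or more Epcam UMIs and 0 Cav1 UMIs. The 1029 Cav1-high cells were 13.4% of MT1 and held 63.9% of its proliferin UMIs. They were 16.4, 5.72, 11.8, 14.5 and 16.4% of the cells of the 5 libraries, lowest in replicate 2, which also had the lowest proliferin levels. Prl2c2 stood at 754, 232, 365, 530 and 401 CPM in the Cav1-high cells of the 5 libraries. In their Epcam-positive cells it stood at 8.57, 2.94, 3.35, 1.79 and 3.78. Prl2c3 stood at 955, 181, 588, 667 and 489 in the Cav1-high cells and at 18.1, 7.07, 4.78, 2.38 and 3.31 in the Epcam-positive cells. The classes did not overlap for either gene, and Cav1-high lay above Epcam-positive without overlap for 9.35% of 17970 genes. The ratio of the classes was 88.0, 78.9, 109, 297 and 106 for Prl2c2 and 52.8, 25.7, 123, 280 and 148 for Prl2c3. The high ratio of replicate 4 came with the lowest Epcam-positive levels, 6 Prl2c2 and 8 Prl2c3 UMIs in 1373 cells.

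The share of positive cells separated the classes too. It was 45.2, 38.1, 42.0, 47.9 and 44.4% of the Cav1-high cells, 44.6% when pooled, at a median of 2196 UMIs per cell. In the 4912 Epcam-positive cells it was 1.65% at a median of 2080 UMIs. Thinned to 1000 UMIs the shares were 33.5% and 0.835%. Free RNA in droplets can give UMIs to cells that do not express a gene, so the Epcam-positive share is printed beside the Cav1-high share. In replicate 1 the Epcam-positive cells held 9 Prl2c2 UMIs, all in 2 cells. Whether the UMIs in Epcam-positive cells come from free RNA, doublets or expression was not tested. The low Epcam-positive share is not evidence of expression there. In these sums fewer positive cells and less RNA per cell cannot be told apart, so both the share and the level are given.

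Cells with both Cav1 and Epcam were intermediate. These 1314 cells held 33.1% of the proliferin UMIs of MT1, and 16.4% of them were positive. Among them the 439 cells with more Cav1 than Epcam UMIs were positive in 38.5% of cases, with 941 CPM for both genes summed. The 774 cells with more Epcam than Cav1 were positive in 5.68%, with 52.5 CPM. Doublets of the 2 classes were not removed, and their part in these intermediate values was not tested.

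**Figure D2:**
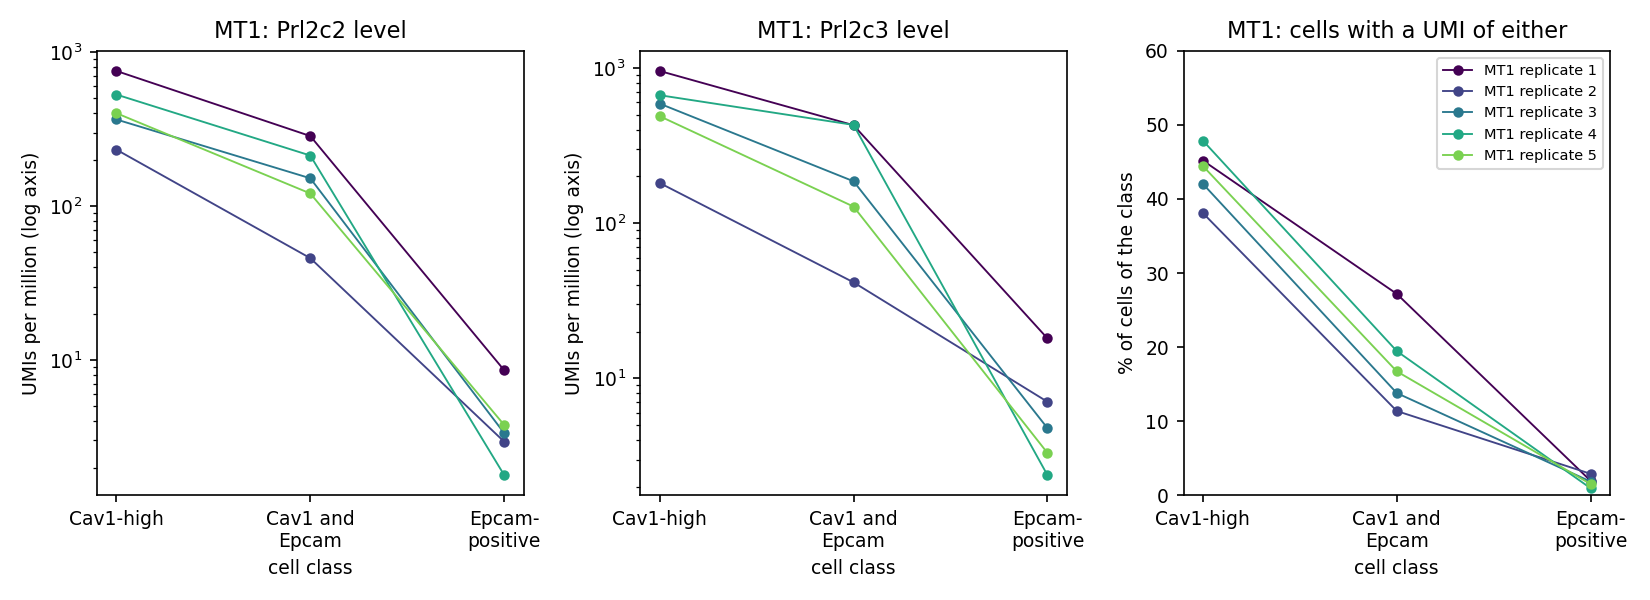
Prl2c2 level, Prl2c3 level (CPM, log axes) and share of cells with a UMI of either gene in 3 classes of MT1 cells, with 1 line per library. In all 5 libraries the values fall from Cav1-high through cells with both Cav1 and Epcam to Epcam-positive cells, and the share falls from 38.1% or more to 2.90% or less.

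The share of positive cells was higher in cells with more Cav1 UMIs, in MT1 far more than in MT2. Among MT1 cells with 0 Epcam UMIs it was 1.73% at 0 Cav1 UMIs, 4.55% at 1, 18.6% at 4 to 5, 28.0% at 6 to 9 and 49.8% at 10 or more, where 843 cells lay. At 2 and at 3 Cav1 UMIs, the values just inside the class, it was 9.52% of 21 cells and 4.55% of 22 cells, so few cells lay near the threshold. In MT2 it was 0.715% at 0 and 5.36% at 10 or more Cav1 UMIs, the latter in 168 cells with a median of 12715.5 UMIs. Thinned to 1000 UMIs, MT2 was at 0.377% at 0, between 0.256 and 0.575% at 1 to 9 and 2.38% at 10 or more Cav1 UMIs, and MT1 at 0.576% at 0 and 37.8% at 10 or more. Cav1-rich cells are deeper in MT2 than in MT1, and a Cav1 count also grows with depth.

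**Figure D3:**
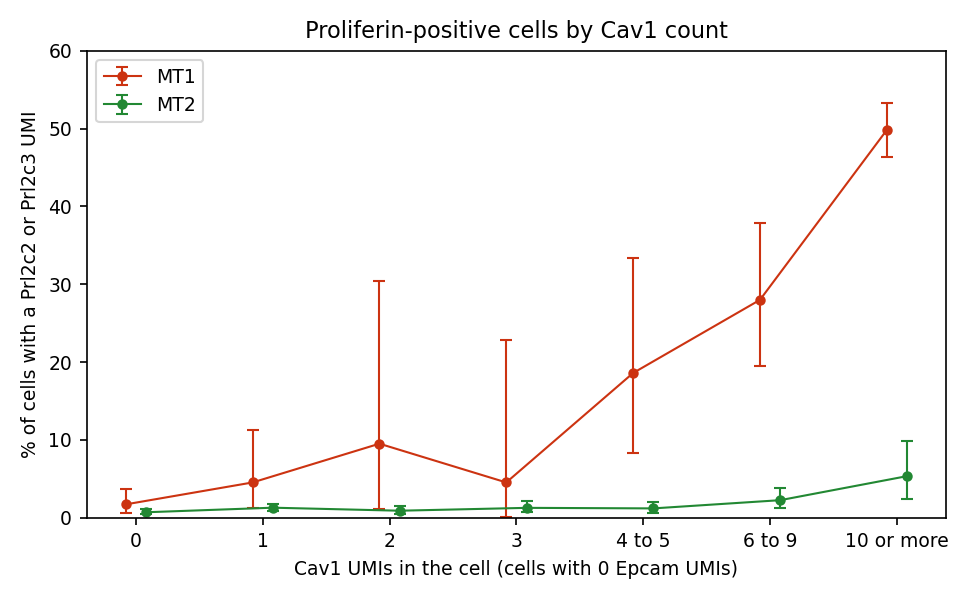
Share of cells with a UMI of Prl2c2 or Prl2c3 (%) by the number of Cav1 UMIs in the cell, for MT1 and MT2 cells with 0 Epcam UMIs; bars are 95% exact Clopper-Pearson intervals, which cover counting error only. MT1 goes from 1.73% at 0 to 49.8% at 10 or more Cav1 UMIs, and MT2 from 0.715% to 5.36%.

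In MT2 few Cav1-high cells held proliferin. It had 4925 Cav1-high cells, of which 1.38% were positive, with 5.75 CPM of Prl2c2 and 1.27 of Prl2c3. MG2 had 34 Cav1-high cells, of which 6 were positive (17.6%), against 9 of its 1987 Epcam-positive cells (0.453%). Thinned to 1000 UMIs these shares were 5.88% and 0.0503%. These 34 cells held 56 of the 97 proliferin UMIs of MG2, 48 of them in 1 cell. MG1 had 5 Cav1-high cells, of which 0 were positive. Cav1 stood at 10902 ± 2353 CPM (SD, n = 5) in the MT1 Cav1-high cells and at 703 ± 170 (SD, n = 3) in those of MT2, so the same rule takes cells with different Cav1 levels in the 2 tumors.

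The class names were checked against markers of other cell types. Of the MT1 Cav1-high cells 21 had 2 or more UMIs over 7 endothelial markers, and these 21 cells held 0 proliferin UMIs. None had 2 or more UMIs over the immune or over the pericyte markers, and Ptprc, Tyrobp and Cldn5 were at 0. Fibroblast markers reached 2 or more UMIs in 697 of 1029 cells, led by Dcn, and did so in 306 of 459 positive and in 391 of 570 negative cells. Luminal markers reached 2 or more UMIs in 729 of 1029 cells, in 345 of 459 positive and in 384 of 570 negative cells, and their sum ranged from 1513 to 2007 CPM, against 11879 to 17481 CPM in the Epcam-positive cells. Among the 34 Cav1-high cells of MG2, 8 had 2 or more endothelial UMIs, none of them proliferin-positive, and 10 had 2 or more fibroblast UMIs, 2 of them proliferin-positive. In MT1 the summed fibroblast markers ranged from 1695 to 4177 CPM over the 5 libraries in the Cav1-high cells and from 153 to 478 in the Epcam-positive cells. Col1a2 and Col3a1 were concentrated in few cells, since 16 Cav1-high cells held 95.7% of the collagen UMIs (Col1a1, Col1a2 and Col3a1), and 3 of these were proliferin-positive. Without the cells carrying endothelial, immune or pericyte markers or collagen (an alternative chosen after seeing the data) 993 cells were left, of which 45.9% were positive. Of the trophoblast markers only Plac1 of 6 was in the table, at 0 to 7.18 CPM in the Cav1-high cells.

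Even in the Cav1-high cells the proliferins were unevenly spread. Of the 1029 cells, 570 (55.4%) held 0 UMIs of either gene, 125 held 1, 157 held 2 to 4, 93 held 5 to 9, 54 held 10 to 19 and 30 held 20 or more. The richest 103 cells held 64.7% of the UMIs. The highest cell of the class held 23 Prl2c2 and 61 Prl2c3 UMIs among 8142. Positive cells were deeper than negative cells, with medians of 2486 and 1998.5 UMIs.

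Prl2c2 made up 42.5, 51.7, 40.9, 40.4 and 46.1% of the pair's UMIs in the 5 MT1 libraries, 42.1% when pooled (95% exact Clopper-Pearson interval 40.7 to 43.6). The intervals of replicate 2 (43.4 to 59.9) and replicate 4 (37.9 to 42.8) did not overlap, but 221 UMIs of replicate 4 were in 1 cell. Without that cell its share was 43.4% (interval 40.8 to 46.1), which overlaps that of replicate 2. UMIs of a cell are not independent draws, so these intervals are too narrow. It made up 43.0% in the Cav1-high cells (interval 41.2 to 44.9) and 38.9% in the Epcam-positive cells (interval 29.7 to 48.7), and these intervals overlap. In MT2 it made up 87.8, 86.5 and 72.5% in the 3 libraries, 81.8% when pooled (interval 76.8 to 86.1). In MG2 it made up 27.8% of 97 UMIs, of which 48 came from the single cell above.

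Cells with both genes were the rule in MT1 and the exception in MT2. Of the MT1 cells with 5 or more UMIs of the pair, 242 of 254 held both, 10 held Prl2c2 alone and 2 held Prl2c3 alone. Of the 14 such cells in MT2, 1 held both, 10 held Prl2c2 alone and 3 held Prl2c3 alone. These 14 cells came from all 3 libraries (5, 2 and 7 cells). All 124 MT1 cells with 10 or more UMIs held both, with a Prl2c2 share between 5.56 and 92.3% (median 39.4), and 107 of them lay between 20 and 80%. A read from the shared 3′ end cannot tell the genes apart, and how such reads were assigned in MT1 and in MT2 was not tested.

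**Figure D4:**
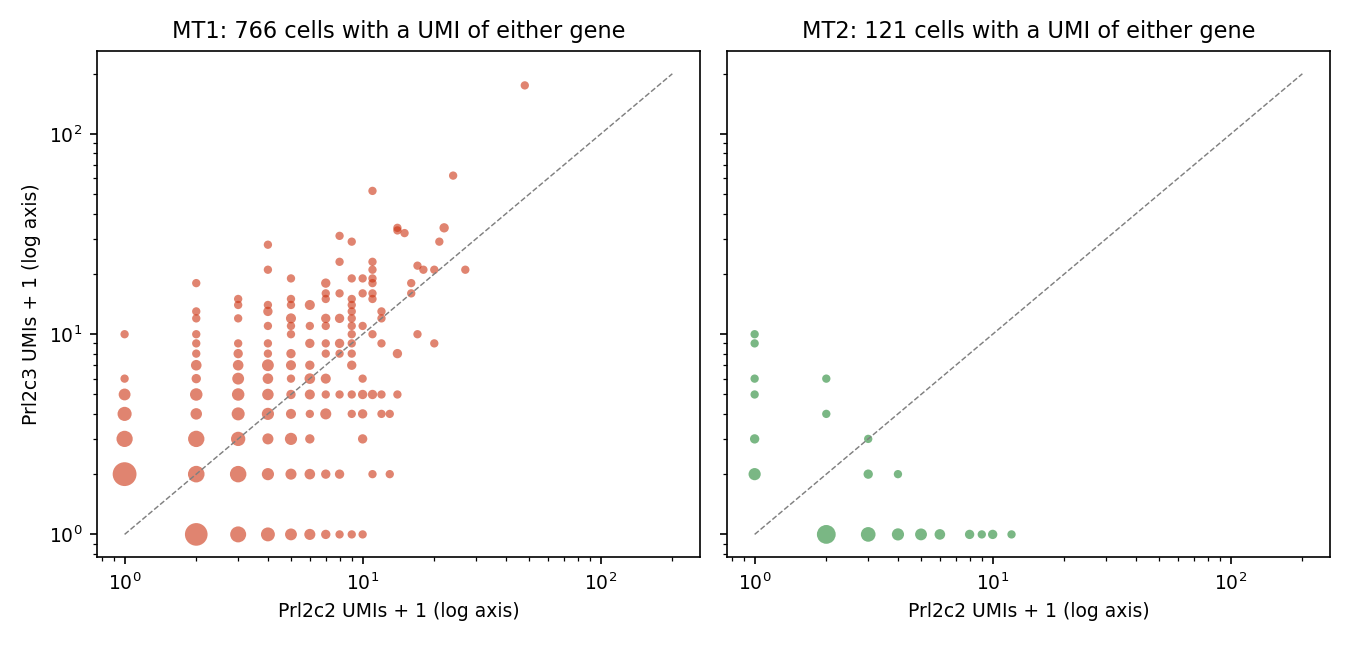
UMIs of Prl2c3 against UMIs of Prl2c2 (both plus 1, log axes) in the MT1 and MT2 cells with a UMI of either gene; the area of a dot grows with the number of cells at that point, and the dashed line marks equal counts. MT1 cells with 10 or more UMIs all have both genes and lie around the line, and of the 14 MT2 cells with 5 or more UMIs all but 1 lie on an axis, with the other gene at 0.

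Other members of the prolactin family were close to absent, and none of the 6 family rows besides the members had the counts needed for a test. Prl2c5 gave 48 UMIs in 10 cells, all in MT1, and 38 of them were in 1 cell of replicate 3 that held 54 UMIs of Prl2c2 and Prl2c3. Prl6a1 gave 12 UMIs, 10 of them in MT1, with 7 in Epcam-positive and 0 in Cav1-high cells. The other 4 were read in MT2 alone. Prl8a9 gave 22 UMIs, 17 of them in 1 cell, Prl2a1 gave 15, Prl7b1 gave 10 and Prl7d1, whose product proliferin-related protein counteracts blood vessel growth, gave 3. None of the cells with the most UMIs of these 4 genes held a proliferin UMI.

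Receptors for these hormones were read at low levels. UMIs were summed per library and class and compared within libraries with edgeR's quasi-likelihood test (Benjamini-Hochberg adjusted p under 0.05), in which 30.4% of 8006 genes rose and 31.6% fell in the Cav1-high against the Epcam-positive cells of MT1. Of the lists named for cell types, 12 of 13 mesenchymal genes rose (median log2 fold change 4.43) and 13 of 13 epithelial genes fell (median -3.64), against a median of -0.02 over all genes. Of 7 genes for receptors and for mannose 6-phosphate tagging, 1 rose and 3 fell, a share called close to that of all genes. Igf2r, the receptor of proliferin, stood at 5.67 to 28.7 CPM in the Cav1-high and at 19.9 to 26.7 in the Epcam-positive cells. Its log2 fold change was -0.62 (SE 0.25, adjusted p = 0.0266, lower in 4 of 5 libraries), and this call was lost under 5 alternatives, with adjusted p of 0.105 by DESeq2 and 0.0525, 0.180 and 0.0594 without replicate 2, 4 or 5. The prolactin receptor Prlr fell by 3.03 (SE 0.27, adjusted p = 6.71e-13) and the growth hormone receptor Ghr rose by 1.23 (SE 0.19, adjusted p = 6.69e-07). Gnptab, which encodes part of the enzyme that adds the mannose 6-phosphate tag, fell by 1.77 (SE 0.38, adjusted p = 0.000123). It rests on 13 UMIs in the Cav1-high cells and was lower in 4 of 5 libraries, with replicate 2 at 22.7 against 15.3 CPM.

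AP-1 and glucocorticoid-responsive genes were mostly lower in the class that held the proliferins. Of 12 AP-1 genes 2 rose in the Cav1-high cells and 9 fell (median -0.85). Maf rose by 2.95 (SE 0.25, adjusted p = 1.32e-13) and Fosl1 by 0.90 (SE 0.11, adjusted p = 2.07e-09). Fos, the founding member, stood at 445, 459, 459, 577 and 526 CPM in the Cav1-high and at 1484 to 1683 in the Epcam-positive cells and fell by 1.67 (SE 0.06, adjusted p = 7.82e-26). Jun fell by 1.31 (SE 0.07, adjusted p = 2.73e-19). Of 11 glucocorticoid-responsive genes 1 rose, the metallothionein Mt2 (0.88, SE 0.06, adjusted p = 2.52e-15), and 6 fell (median -0.34), among them the kinase inhibitor Errfi1 (-1.97, SE 0.08, adjusted p = 4.54e-24). The glucocorticoid receptor gene Nr3c1 was not called, at a log2 fold change of 0.06 (SE 0.09, adjusted p = 0.605).

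Of 10 angiogenesis genes 5 rose and 3 fell (median 0.12), against 30.4% of all genes rising and 31.6% falling. Angptl4 rose by 2.90 (SE 0.15, adjusted p = 4.74e-20). Hgf stood at 15.2 to 33.3 CPM in the Cav1-high and at 0 to 1.19 in the Epcam-positive cells, and Vegfc at 34.8 to 64.0 and 0 to 1.89. Of 17 proliferation genes 14 rose and 0 fell (median 0.60), led by Ccna2 (1.20, SE 0.17, adjusted p = 4.92e-08), a cyclin. The serum response list was split, with 4 of 9 genes rising and 4 falling. Of a list of 26 trophoblast genes 10 were in the table and 1 was tested. This was Phlda2, which fell (log2 fold change -1.96, SE 0.27, adjusted p = 3.67e-08). All 4 tested caveolae genes other than Cav1 rose, among them Cavin2 by 3.55 (SE 0.08, adjusted p = 6.56e-32). The genes with the largest rise at 100 CPM or more were Lce1g (7.72), of the cornified envelope family, Col5a3 (6.22), a collagen chain, Dynap (5.99), the intermediate filament gene Vim (5.85) and Ptgs2 (5.75), an enzyme of prostaglandin synthesis. Those with the largest fall were the casein gene Csn3 (-4.97), the tight junction gene Cldn3 (-4.56), Spint2 (-4.52), Wfdc18 (-4.36) and Lcn2 (-4.25).

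Within the Cav1-high cells of MT1, the 459 proliferin-positive cells differed from the 570 negative cells. Positive means 1 or more UMIs of either gene, and UMIs were again summed per library and compared with the library as a block. In the positive cells 266 of 4386 genes rose (6.06%) and 344 fell (7.84%), with a median of -0.00 over all genes. The count of 610 rests on the settings. It was 184 with DESeq2 and 255 without the replicate block (77 higher and 178 lower, 30.2% higher against 43.6%). It was 145 with cells thinned to 1000 UMIs (of 1691 tested), 268 without replicate 3 and 274 without replicate 4. In the thinned fit the groups were drawn anew from the thinned proliferin counts, and replicate 2 had 8 positive cells instead of 16. Depth and the new grouping cannot be told apart in that fit.

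Proliferation genes rose together in the positive cells. Of 13 tested, 11 rose and 0 fell, with a median log2 fold change of 0.68. Cyclin B1 (Ccnb1) stood at 199, 50.7, 109, 124 and 95 CPM in the positive and at 79.7, 0, 35.6, 34.9 and 45.3 in the negative cells, a log2 fold change of 1.5 (SE 0.23, adjusted p = 2.47e-06). It was higher in all 5 libraries, although the ranges of the groups overlapped. Ube2c, which helps to degrade cyclins at mitosis, rose by 1.10 (SE 0.15, adjusted p = 3.86e-07), a call lost in thinned cells (adjusted p = 0.0973). Cenpf, of the kinetochore, rose by 0.91 (SE 0.18, adjusted p = 0.000253), and Bub1, of the spindle checkpoint, by 0.99 (SE 0.26, adjusted p = 0.00471). Positive cells are deeper. With cells thinned to 1000 UMIs, and the groups drawn anew, 1 of 7 tested proliferation genes was called. With DESeq2 it was 6 of 13, without the replicate block 5 of 13, without replicate 3 8 of 12 and without replicate 4 6 of 12. None was called lower in any of these.

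Among the 10 genes with the largest rise at 20 CPM or more, besides Ccnb1 and Ube2c, were Gatm (1.22), an enzyme of creatine synthesis, Lce1g (1.20), the replication checkpoint gene Clspn (1.18), the chromatin assembly gene Chaf1a (1.15), the kinesin Kif20b, Exosc2 (1.09), the neurotrophin Bdnf (1.08) and Trip13 (1.08), of the mitotic checkpoint. The Gatm call was lost without replicate 4 (adjusted p = 0.0908), and the Bdnf call without replicate 3 (adjusted p = 0.0657) and without replicate 4 (adjusted p = 0.0526). Lce1g stood at 755, 304, 514, 484 and 436 CPM in the positive and at 261, 92.3, 214, 177 and 275 in the negative cells, with no overlap (SE 0.13, adjusted p = 2.14e-10). Among genes at 100 CPM or more it was thus the one with the largest rise in the Cav1-high cells. It was also higher in those with proliferin.

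Of 10 mesenchymal genes 6 fell in the positive cells and 1 rose (median -1.1). The summed endothelial markers stood at 2.17 CPM in the positive and 141 CPM in the negative cells. Fibronectin (Fn1) stood at 214, 279, 290, 302 and 310 CPM in the positive and at 826, 1343, 934, 1153 and 750 in the negative cells, a log2 fold change of -1.79 (SE 0.11, adjusted p = 2.68e-18). Col6a1 fell by 1.64 (SE 0.14, adjusted p = 5.35e-13). Col1a2 and Col3a1 had log2 fold changes of -3.68 (SE 0.29, adjusted p = 1.92e-14) and -3.95 (SE 0.35, adjusted p = 5.76e-13), but their UMIs sat in the 16 cells described above and neither had enough UMIs for a test without them. The Col3a1 call was also lost with DESeq2 (adjusted p = 0.124). The exception in the list was Vim, which rose by 0.31 (SE 0.07, adjusted p = 0.000443). Without the cells carrying stromal markers or collagen 4 of 8 mesenchymal genes fell and 1 rose, and Fn1 was at -1.75. Of 4 epithelial genes 2 rose in the positive cells and 0 fell. They were Cd24a (0.37, SE 0.11, adjusted p = 0.0133) and Krt8 (0.33, SE 0.10, adjusted p = 0.0184). Both calls were lost with DESeq2 (adjusted p = 0.0840 and 0.123), without the replicate block, in thinned cells and under further alternatives.

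The 10 genes with the largest fall at the same level were Sparcl1 (-4.53), Mme (-4.11), Col3a1, Col1a2, Wisp2 (-3.14), Ctla2a (-2.85), Nrep (-2.61), Medag (-2.47), Igfbp7 (-2.21) and Pdgfrl (-2.19). Igfbp7, a secreted binding protein of insulin-like growth factors, stood at 221, 228, 181, 313 and 208 CPM in the positive and at 833, 1210, 1216, 1255 and 715 in the negative cells (SE 0.12, adjusted p = 6.10e-21). Mme, the membrane peptidase neprilysin, stood at 0, 0, 4.76, 4.35 and 7.04 against 50.7, 103, 114, 75.2 and 48.5 (SE 0.41, adjusted p = 3.36e-11). For both genes the groups did not overlap. Without the cells carrying stromal markers or collagen Igfbp7 was at -1.83 and Mme at -4.15, and Sparcl1 and Ctla2a were no longer tested.

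AP-1 and glucocorticoid genes were not higher in the proliferin-positive cells. Of 9 AP-1 genes 0 rose and 4 fell (median -0.29), namely Maf (-1.37, SE 0.32, adjusted p = 0.00174), Maff (-0.72, SE 0.18, adjusted p = 0.00304), Atf3 (-0.64, SE 0.11, adjusted p = 6.17e-05) and Junb (-0.42, SE 0.14, adjusted p = 0.0415). Fos had a log2 fold change of -0.29 (SE 0.11, adjusted p = 0.0692), Jun of -0.25 (SE 0.11, adjusted p = 0.123) and Fosl1 of 0.29 (SE 0.16, adjusted p = 0.239). Of 10 glucocorticoid genes 0 rose and 5 fell (median -0.48). They were Errfi1 (-0.87), Dusp1 (-0.84), Mt2 (-0.62), the receptor gene Nr3c1 (-0.60) and Mt1 (-0.57). With DESeq2 1 of 9 AP-1 and 4 of 10 glucocorticoid genes were called, and with cells thinned to 1000 UMIs 1 of 7 and 4 of 9, all of them lower. The Junb call was lost without replicate 2, 3 or 4 (adjusted p = 0.106 to 0.393), with DESeq2 (adjusted p = 0.300), without the replicate block, in thinned cells and with 3 other settings. The Nr3c1 call was lost without replicate 4 or 5 (adjusted p = 0.144 and 0.0714), with DESeq2 (adjusted p = 0.188), without the low-count filter, without the replicate block and in thinned cells. The Dusp1 call was lost in thinned cells (adjusted p = 0.195) and the Maff call with DESeq2 (adjusted p = 0.0840). Maf had too few UMIs for a test without the cells carrying stromal markers or collagen.

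Some serum response and angiogenesis genes fell as well, and caveolae genes were split. Of 8 serum response genes 4 fell and 0 rose, namely Ctgf (-1.32, SE 0.27, adjusted p = 0.000374), Myc (-1.0, SE 0.30, adjusted p = 0.0181), Egr1 (-0.77, SE 0.15, adjusted p = 0.000228) and Ier2 (-0.61, SE 0.15, adjusted p = 0.00381). The Ier2 call was lost with DESeq2 (adjusted p = 0.158), without the replicate block, in thinned cells and without replicate 3 or 4 (adjusted p = 0.0524 and 0.0981). The Myc call was lost without the replicate block, with 2 or more proliferin UMIs for a positive cell, with more Cav1 than Epcam as the class rule and without replicate 3 or 5 (adjusted p = 0.0745 and 0.0695). Of 4 angiogenesis genes 3 fell, led by Thbs1 (-1.17, SE 0.23, adjusted p = 0.000188), an inhibitor of vessel growth, and including Vegfa (-0.63, SE 0.17, adjusted p = 0.00639), a promoter of it. The fall of the other, Angptl4 (-0.52, SE 0.18, adjusted p = 0.0486), was lost under most alternatives, and that of Vegfa with DESeq2, without the replicate block, in thinned cells and without replicate 4. Of 5 caveolae genes Cavin2 (0.61), Cav2 (0.37) and Cav1 (0.27) rose and Cavin3 (-0.47) fell. The Cav1 and Cav2 calls were lost without the replicate block and in the thinned cells, that of Cav1 also without replicate 3 (adjusted p = 0.0848), that of Cav2 also with more Cav1 than Epcam as the class rule (adjusted p = 0.0708), and that of Cavin3 under most alternatives, replicates 1 and 4 left out among them (adjusted p = 0.0603 and 0.232). With Cav1-high as 10 or more Cav1 UMIs (an alternative chosen after seeing the data) the log2 fold change of Cav1, the gene that defines the class, was 0.06 (adjusted p = 0.691). Of the receptor genes only Ghr and M6pr had enough UMIs for a test, and neither was called (0.58, adjusted p = 0.171, and 0.02, adjusted p = 0.968).

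**Figure D5:**
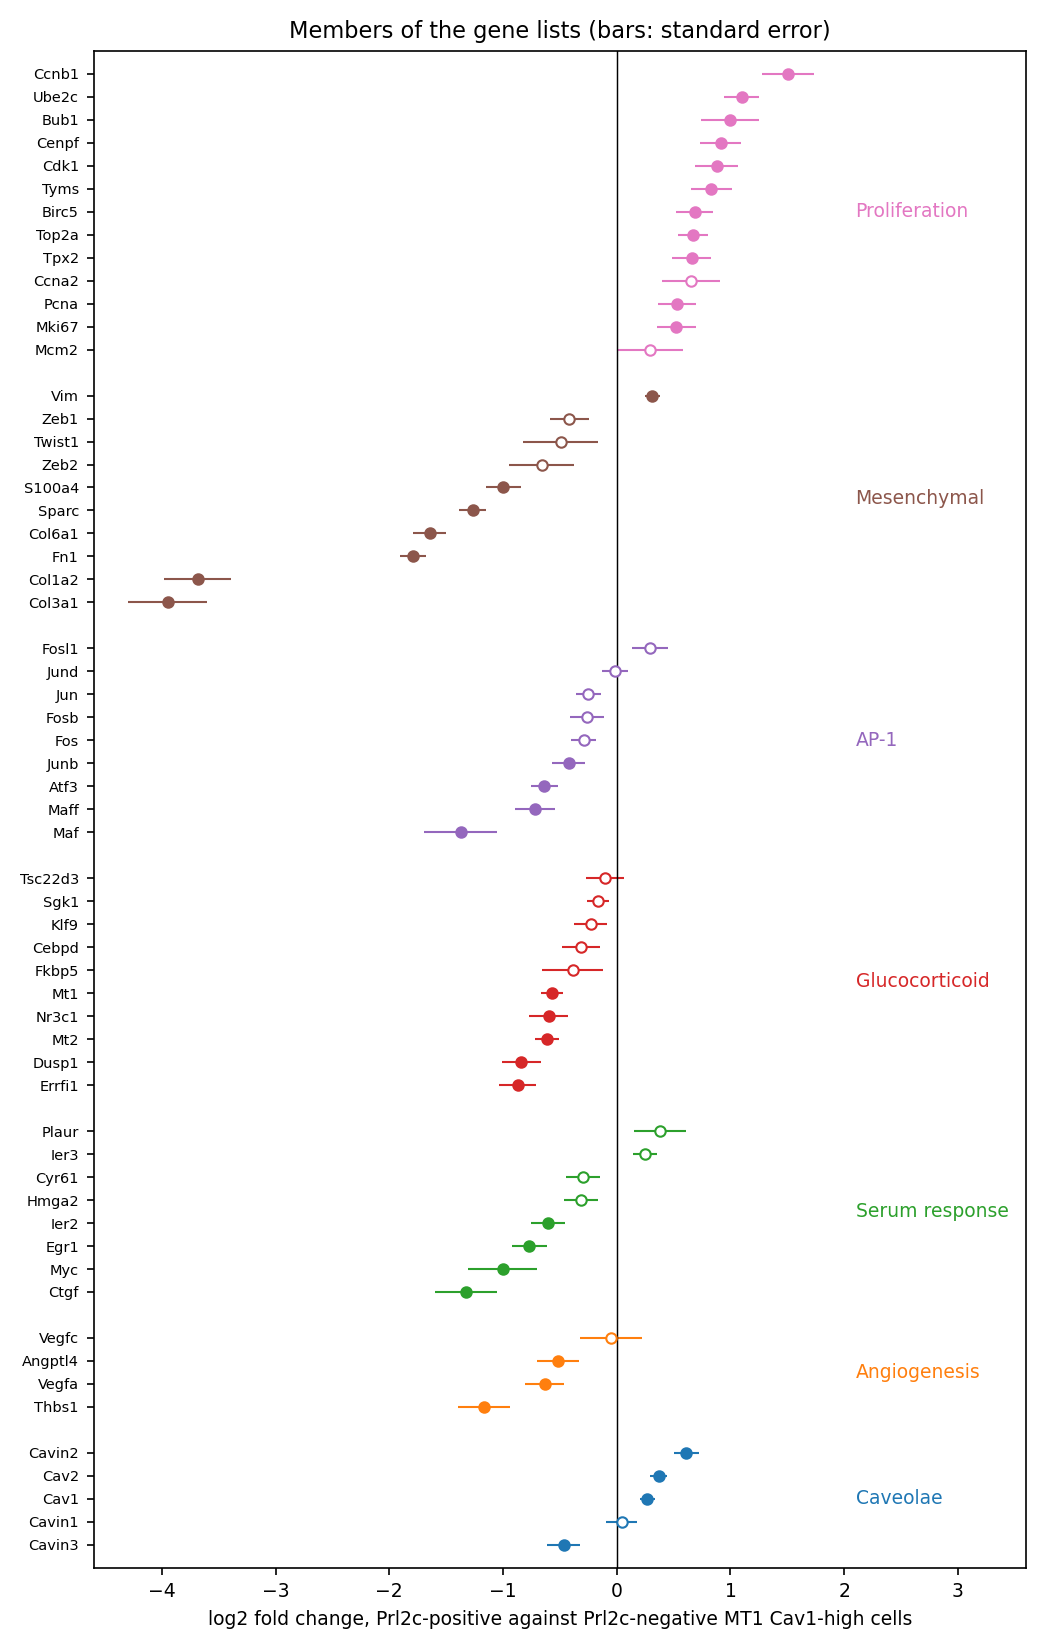
Log2 fold change of proliferin-positive against proliferin-negative MT1 Cav1-high cells for the tested members of 7 gene lists, with standard errors; filled dots passed an adjusted p under 0.05 and open dots did not. Proliferation genes lie to the right of 0, and all filled AP-1, glucocorticoid, serum response and angiogenesis genes and all filled mesenchymal genes but Vim lie to the left.

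Correlations were computed over single cells. Over the 1029 Cav1-high cells Prl2c2 and Prl2c3 correlated with each other at r = 0.69 (Pearson, log-normalized values centred within each library). Among 5755 genes seen in 5% or more of the cells the r with the summed pair ran from -0.33 to 0.29, with a median of 0.02. The 15 genes with the highest r and an r above 0 in every library were led by the nucleolar protein gene Ncl (0.29), the actin capping gene Capza2 (0.28), the galectin gene Lgals1 (0.28), the nuclear transport gene Ran (0.27) and the ribosomal gene Rps2 (0.26). They went on with Slc25a5, Vim, Aprt, Serbp1, Hspa9, Set, Hspd1, Hsp90aa1, Ranbp1 and Rpl13, down to an r of 0.24. The lowest were Fn1 (-0.33) and Igfbp7 (-0.32). The cells share 5 libraries and differ in depth, and thinned to 1000 UMIs the 15 genes had r between 0.11 and 0.22. The proliferin counts were sparse, with 0 UMIs in 55.4% of these cells, so correlations of this size are a description and no finding.

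Genes near the proliferin locus were compared as well. Within 1 Mb of either member 68 genes are annotated, 14 of them protein-coding. Of these 68, 8 had enough UMIs for the class comparison, in which 5 rose and 1 fell. Over all 8006 genes tested there, 30.4% rose and 31.6% fell. Gpr137b, a lysosomal membrane protein gene on the Prl2c2 side, stood at 104, 45.3, 69.0, 58.9 and 62.3 CPM in the Cav1-high and at 6.48 to 9.45 in the Epcam-positive cells, a log2 fold change of 2.95 (SE 0.19, adjusted p = 5.12e-17). The basement membrane gene Nid1 rose by 3.64 (SE 0.24, adjusted p = 1.66e-16) and B3galnt2 by 1.43 (SE 0.20, adjusted p = 3.49e-08). Gpr137b-ps rose by 2.02 (SE 0.24, adjusted p = 1.86e-09), but it is annotated as a pseudogene of Gpr137b and the 2 can share reads. Heatr1 rose by 0.73 (SE 0.17, adjusted p = 0.00037) and Lyst fell by 0.75 (SE 0.25, adjusted p = 0.0105), a call lost with DESeq2 (adjusted p = 0.0531) and without replicate 5 (adjusted p = 0.0785). Between proliferin-positive and negative Cav1-high cells, where 6.06% of all genes rose and 7.84% fell, 6 of these genes were tested. Only Gpr137b was called (0.73, SE 0.23, adjusted p = 0.0229). That call was lost under 5 alternatives, among them DESeq2, the fit without the replicate block and the fits without replicate 3 or 4 (adjusted p = 0.102 and 0.0914).

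The Cav1-high cells of MT1 were last compared with those of MT2, which lacked the proliferin level. This test has libraries of 1 mouse on each side, so its p covers the spread between libraries only, and 30.1% of 7892 genes were higher and 30.3% lower in MT1. The cells also differed in depth, with medians of 2196 UMIs in MT1 and 4483 in MT2, and all 3 tested endothelial markers were higher in MT1. Fibroblast markers reached 2 or more UMIs in 4834 of the 4925 MT2 cells and in 697 of the 1029 MT1 cells, and the summed pericyte markers stood at 28.2 to 34.2 CPM in MT2 and at 0 to 8.41 in MT1. Col1a2 stood at 65.7 to 1213 CPM in MT1 and at 2270 to 2495 CPM in the other tumor (log2 fold change -3.36, SE 0.51, adjusted p = 3.88e-06). The part of depth and of these markers in the calls was not tested. AP-1 genes were split, with 5 of 11 higher and 5 lower (median 0.03). Fos stood at 445 to 577 CPM in MT1 and at 168 to 201 in MT2 (log2 fold change 1.40, SE 0.13, adjusted p = 1.16e-09). Jun was higher by 1.51 (SE 0.15, adjusted p = 1.56e-09) and Atf3 by 1.81 (SE 0.15, adjusted p = 9.92e-11). Maf was lower, at 21.5 to 51.0 CPM in MT1 and 80.6 to 125 in MT2 (log2 fold change -1.56, SE 0.20, adjusted p = 1.94e-07). Of 12 glucocorticoid genes 3 were higher and 7 lower (median -0.67). Mt1 stood at 795 to 1105 CPM in MT1 and at 3655 to 5034 in MT2 (log2 fold change -2.18, SE 0.14, adjusted p = 5.38e-13). Cebpd stood at 108 to 189 CPM in MT1 and at 18.6 to 22.2 in MT2 (log2 fold change 2.70, SE 0.17, adjusted p = 5.92e-13). Zbtb16, with 2 UMIs in MT1, had a log2 fold change of -4.64 (SE 0.52, adjusted p = 2.86e-08).

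Of 6 genes for receptors and mannose 6-phosphate tagging 1 was higher in MT1 and 2 were lower (median -0.35). Nagpa, of the tagging pathway, was higher by 0.99 (SE 0.29, adjusted p = 0.00446). Igf2r stood at 5.67 to 28.7 CPM in MT1 and at 34.9 to 37.7 in MT2 (log2 fold change -1.29, SE 0.24, adjusted p = 6.48e-05), and Gnptab differed likewise (-2.57, SE 0.36, adjusted p = 1.27e-06). Of 11 angiogenesis genes 3 were higher and 7 lower (median -0.93), with endothelin 1 (Edn1) higher by 3.89 (SE 0.29, adjusted p = 1.27e-11) and Hgf at -1.83 (SE 0.19, adjusted p = 9.03e-09). Of 10 serum response genes 1 was higher and 8 lower. Proliferation genes were split, with 4 of 18 higher and 8 lower, and mesenchymal genes likewise, with 4 of 14 higher and 5 lower. All 9 tested epithelial genes were higher in MT1, among them the keratin gene Krt7 at 30.9 to 39.7 against 0.505 to 0.672 CPM and Cldn3 at 5.67 to 43.8 against 0 to 0.318 CPM. In the Epcam-positive cells of MT1, which are 63.9% of that tumor, Cldn3 stood at 508 to 706 CPM, whereas 34 of the 10314 MT2 cells were Epcam-positive. The part of free epithelial RNA in these levels was not tested. Near the proliferin locus 6 of 8 tested genes were higher and 1 lower, against 30.1% and 30.3% of all 7892 genes. Gpr137b stood at 45.3 to 104 CPM in MT1 and at 4.14 to 6.58 in MT2 (log2 fold change 3.68, SE 0.22, adjusted p = 2.06e-13).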

How the data were processed

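Drop-seq libraries of 2 glands and 2 tumors were sequenced by the authors as paired 150-base reads, and UMIs were counted with Drop-seq tools after alignment by STAR to GRCm38.p6. What the authors deposited are unnormalized UMI counts for 21743 genes in 21157 cells. The use of strand and the treatment of reads matching several genes are not given in the sources used here. Each of the 12 libraries' columns was matched to the labels by its suffix, with 0 columns unassigned. Replicates were numbered in accession order. No 2 libraries of a group agreed within sampling noise, so each was counted once.

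CPM are UMIs per 1000000 UMIs of the cells named. Depth was 693333 to 14841414 UMIs per library, and intervals (95%) and floors (3 counts) cover counting error only. UMIs summed per library and class were compared by the quasi-likelihood test of edgeR 4.0.16 (R 4.3.3) after TMM scaling and filterByExpr, at a Benjamini-Hochberg adjusted p under 0.05, with the library as block in both comparisons within MT1, since both classes come from the same libraries. Cav1, Epcam and the Prl2c genes were left out of the class comparison and the Prl2c genes out of the comparison of positive cells. The tests were tried on simulated counts. DESeq2 1.42.0, other scaling, filters, class rules, thinning to 1000 UMIs and leaving out libraries were alternatives. With thinned cells the positive cells were chosen by their thinned proliferin counts. No doublets were removed. Sequence comparisons used GENCODE vM21 transcripts and RefSeq promoters of GRCm38 in python 3.11.15.

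The members and the gene lists were chosen with earlier results of these data known. The genes named are the members, the other Prl rows, at most 4 called genes per list and comparison by size, the 10 largest in each direction in the comparison of positive cells (20 CPM or more), the 5 largest in each direction between classes (100 or more), the 15 highest correlations and the called neighbours within 1 Mb. Other list members that are named or plotted (such as Nr3c1 between the classes and Fos, Jun, Fosl1, Mt1, Ghr and M6pr between positive and negative cells) were added after their values were seen.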

Additional observations from a re-analysis of the deposited data

Results flagged for a closer look

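Over 30 quantities compared among the 5 MT1 libraries, 2 had 1 library whose gap to the others passed Dixon's critical value, which chance alone does in about 1 in 20. Prl2c5 had 40 UMIs in replicate 3 and at most 3 in another library, and 38 of the 40 were in a single cell. The ratio of Cav1-high to Epcam-positive Prl2c2 level was 296.7 in replicate 4 and 109 in the next library, and it rests on 6 Prl2c2 UMIs in the Epcam-positive cells of replicate 4. The ratio is one of the values that chose the gene, so its gap is given as a description.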

How the results depend on the processing

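Thinning cells to 1000 UMIs lowered the share of Cav1-high cells positive for Prl2c2 from 35.7% to 23.1%, and for Prl2c3 from 34.0% to 23.1%. A class rule of 1 or more Cav1 UMIs gave 33.2% for Prl2c2. Leaving out 1 library in turn gave Prl2c2 levels of 81.3 to 117 and Prl2c3 levels of 108 to 160 CPM. The ratios ran from 95.5 to 150 for Prl2c2 and from 87.3 to 151 for Prl2c3, lowest without replicate 4. The positive shares ran from 34.9 to 36.1% and from 33.4 to 34.3%, and the Prl2c2 share of the pair from 41.4 to 43.1%. The median r of the 15 correlated genes was 0.25, and 0.16 in thinned cells.

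For the classes 4964 genes were called, 2848 with thinned cells (of 5270 tested), 4442 without the replicate block, and 4401 to 5098 with 1 library left out. For proliferin-positive against negative cells 610 were called. This count was 184 with DESeq2, where 1531 genes had no adjusted p, 933 when cells with more Cav1 than Epcam UMIs entered the class, 145 with thinned cells (of 1691 tested), and 268 to 626 with 1 library left out, 268 without replicate 3 and 274 without replicate 4. Without the replicate block it was 255, all of them among the 610. For MT1 against MT2 4769 genes were called, and 4315 to 5014 with 1 library left out. No paired analysis was possible because the MT1 and MT2 libraries come from different mice and share no number in the labels. The cause of the other changes was not tested. Values of the named genes under alternatives were counted only where an adjusted p was given, so lost tests are not among them. Of these, 694 of 701 kept their call between the classes, 563 of 648 between positive and negative cells and 629 of 630 between the tumors, and 0 reversed. The counted genes had been called and mostly picked by size, so these counts are no measure for other genes. In the comparison as reported the smallest positive group had 16 cells, in replicate 2, and how this limits genes of low level was not tested.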

Other observations

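Capza2, second among the genes correlated with the proliferins, lies on chromosome 6 beside Cav1, and the region was examined after these values were seen. Of the 39 genes annotated within 1 Mb of Cav1, 6 were tested between proliferin-positive and negative Cav1-high cells of MT1, and 5 were higher in the positive cells: Cav1 (log2 fold change 0.27), Cav2 (0.37), Met (0.39), Capza2 (0.46) and St7 (0.51). Met encodes the receptor of hepatocyte growth factor. The sixth, Tes, was not called. Of all 4386 genes tested there 6.06% were higher. Capza2 prompted the choice of the region in these same cells and Cav1 defines the class, so the count is a description and no support. The Cav1 and Cav2 calls were lost without the replicate block (adjusted p = 0.337 and 0.160) and in cells thinned to 1000 UMIs (adjusted p = 0.142 and 0.0681), that of Cav1 also with Cav1-high as 10 or more Cav1 UMIs (0.06, adjusted p = 0.691), and that of Cav2 also with more Cav1 than Epcam as the class rule (adjusted p = 0.0708).

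Met, Capza2 and St7 were at higher levels in both classes of MT1 cells than in the Cav1-high cells of MT2. Met was at 2461 ± 180 CPM in MT1 Cav1-high cells (SD, n = 5), at 2620 ± 180 in MT1 Epcam-positive cells (SD, n = 5) and at 144 ± 14.8 in MT2 Cav1-high cells (SD, n = 3). Capza2 was at 9982 ± 1150, 12382 ± 974 and 480 ± 30.2, and St7 at 611 ± 95.8, 694 ± 76.1 and 15 ± 2.57. The log2 fold change between the classes was -0.11 for Met (SE 0.05, adjusted p = 0.0562), -0.33 for Capza2 (SE 0.05, adjusted p = 5.58e-07) and -0.22 for St7 (SE 0.06, adjusted p = 0.00134). Between MT1 and MT2 Cav1-high cells it was 4.05 (SE 0.15), 4.34 (SE 0.16) and 5.32 (SE 0.18). Tumor, mouse and library batch cannot be told apart here, and the source of these levels was not tested.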
